A study of Mus musculus with 12 samples.

Results

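The genes described here are 9 that the liver uses to make bile acids and to sense them: Cyp7a1, Cyp8b1, Hsd3b7, Akr1d1, Cyp27a1, Cyp7b1 and Baat, which encode enzymes of synthesis and conjugation, Nr1h4, which encodes the bile acid receptor FXR, and Nr0b2, which encodes SHP, the repressor that FXR induces. The members were chosen by gene name with earlier results of these data known, so shares of members called below do not come from a blind choice. Every m6A peak whose annotation carries one of those names was taken. This gave 55 of the 37118 peaks in the table and 9 of the 13060 genes named there, and no member was without a peak.

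The study exposed mice to cadmium, a toxic metal that builds up in liver and kidney, and profiled liver RNA by MeRIP-seq. In that assay RNA is broken into fragments, fragments that carry the methylated adenosine m6A (N6-methyladenosine) are pulled down with an antibody, and regions where they pile up are called as peaks. The cadmium group was wild-type (WT) male C57BL/6 mice given CdCl2 by gavage at 20 mg/kg/day and sampled on day 90, and the control group was mice of the same sex, strain, genotype, starting age (6 to 8 weeks) and sampling day given 0 mg/kg/day. Each group had 6 animals in the protocol and 3 immunoprecipitated libraries in the table, numbered by batch, and the labels do not tie libraries to animals. Tests therefore compare groups with the spread between these libraries.

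Bile acids are made from cholesterol in hepatocytes. In the classical pathway CYP7A1 takes the first and rate-limiting step, HSD3B7 and AKR1D1 then rework the steroid rings, and CYP8B1 decides how much cholic acid is made at the expense of the chenodeoxycholic acid branch, which in mice yields muricholic acids. The alternative pathway opens with CYP27A1 and CYP7B1, and BAAT finally joins the product to taurine or glycine. Bile acids activate FXR, and FXR lowers Cyp7a1 and Cyp8b1 transcription through SHP in the liver and through a gut hormone, FGF15 in mice.

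Promoter sequences are shown for the members whose peaks turned out highest or lowest in cadmium livers and for both regulators, as far as the reference holds them, because binding sites of liver factors, FXR partners and clock factors were searched there. Each is the 250 bases before the annotated start, 5′ to 3′ on the gene's strand, from RefSeq on build GRCm38.p6 (mm10). Capitals mark matches to the motifs described after them. The Cyp8b1 promoter lies at chr9:121916306-121916555 on the minus strand, the Hsd3b7 promoter at chr7:127800359-127800608 on the plus strand, the Nr1h4 promoter at chr10:89506659-89506908 on the minus strand and the Nr0b2 promoter at chr4:133553126-133553375 on the plus strand.
Cyp8b1: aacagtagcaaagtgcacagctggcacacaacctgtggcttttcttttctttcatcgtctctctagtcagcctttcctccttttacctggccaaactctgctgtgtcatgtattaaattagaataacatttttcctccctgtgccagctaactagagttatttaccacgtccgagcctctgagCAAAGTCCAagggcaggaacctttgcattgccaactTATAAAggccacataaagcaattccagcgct
Hsd3b7: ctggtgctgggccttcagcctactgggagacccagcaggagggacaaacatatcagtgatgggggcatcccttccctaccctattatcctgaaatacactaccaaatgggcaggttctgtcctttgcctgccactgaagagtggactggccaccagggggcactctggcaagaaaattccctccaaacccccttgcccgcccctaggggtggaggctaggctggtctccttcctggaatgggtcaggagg
Nr1h4: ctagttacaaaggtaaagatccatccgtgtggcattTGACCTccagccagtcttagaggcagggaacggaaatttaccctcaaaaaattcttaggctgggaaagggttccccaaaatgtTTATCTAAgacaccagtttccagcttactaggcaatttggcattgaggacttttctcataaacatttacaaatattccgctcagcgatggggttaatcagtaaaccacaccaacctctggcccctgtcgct
Nr0b2: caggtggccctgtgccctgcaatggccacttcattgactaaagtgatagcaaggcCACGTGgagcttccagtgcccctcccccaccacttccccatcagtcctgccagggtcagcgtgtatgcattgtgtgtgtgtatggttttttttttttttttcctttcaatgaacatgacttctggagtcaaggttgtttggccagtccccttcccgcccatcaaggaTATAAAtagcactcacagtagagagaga

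Entries were matched for 6 of the 9 members (Cyp8b1, Cyp27a1, Hsd3b7, Akr1d1, Nr1h4 and Nr0b2). Both strands of each 250-base window were searched for the nuclear receptor half-site AGGTCA, the FXR inverted repeat AGGTCANTGACCT (which contains the half-site), the LRH-1 site TCAAGGNCA, the HNF4A site CAAAGTCCA, the E-box CACGTG, the D-box TTANNTAA and the TATA box TATAAA. Cyp8b1 held an HNF4A site 67 to 59 bases before its start, a motif found in 0.384% of 32851 promoters, and a TATA box 31 to 26 bases before it. The TATA box was in 12.4% of all promoters and was also present in Nr0b2, 28 to 23 bases before the start. Nr0b2 also held an E-box, which 6.02% of promoters contain. Nr1h4 held a half-site on the opposite strand (TGACCT), present in 14% of promoters, and a D-box match, TTATCTAA, a motif present in 5.43%. Akr1d1 held the half-site at 2 places. The letters of these motifs were not found in the windows of Cyp27a1 and Hsd3b7, the LRH-1 site (1.39% of promoters) was in none of the 6, and the FXR repeat (0.00609%) was in none of the 6 either. These matches describe the letters only.

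Levels below are counts scaled to library size and a normalisation factor per library (CPM), and a log2 change is cadmium over control. A peak was called when its Benjamini-Hochberg adjusted p in edgeR's quasi-likelihood test over 37088 tested peaks was below 0.05. The lead peak of a gene is the one with the highest mean level. Counts in peaks totalled 40174736 to 51205200 in cadmium libraries and 46474259 to 52338612 in control libraries, and the lead peaks of the 9 genes held 314 to 40037 counts in a library, so counting error was small beside the differences between libraries. The 2 largest peaks of the table took 8.39% to 19.7% of the counts in cadmium libraries and 4.95% to 17.4% in control libraries. Only the immunoprecipitated counts were used, so a change in a gene's RNA and a change in the methylated share of that RNA cannot be told apart at any peak here. In whole liver, fewer cells of a type and less RNA per cell cannot be told apart either.

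All 55 peaks passed the filter on low counts, and 12 of them (21.8%) were called, against 6.27% of all tested peaks. The 12 lay in 5 genes: 9 were lower in cadmium (all 7 of Cyp7a1, 1 of 3 of Cyp27a1 and 1 of 23 of Nr1h4) and 3 were higher (the single peak of Cyp8b1 and both of Hsd3b7). Over all tested peaks 2.72% were called lower and 3.55% higher. Peaks of a gene come from the same RNA and are not independent, so the 7 from Cyp7a1 weigh as 1 gene. The levels of the 3 cadmium and 3 control libraries did not overlap at 21 of the 55 peaks (38.2%), against 26.8% of all tested peaks. Taking only the lead peak of each gene, 3 of the 9 were called, against 6.8% of 13050 genes. When counts were summed over the peaks of each gene, 4 of the 9 genes were called, against 10.2% of 13050 genes: Cyp7a1 and Nr1h4 lower, Cyp8b1 and Hsd3b7 higher. Single libraries weighed on these counts: 3 of the 55 peaks were called without cadmium library 3 and 6 without control library 3, and 1 gene was called on summed counts without cadmium library 3. Calls over all tested peaks fell too, from 2325 to 543 without cadmium library 3 and to 1078 without control library 3.

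**Figure D1:**
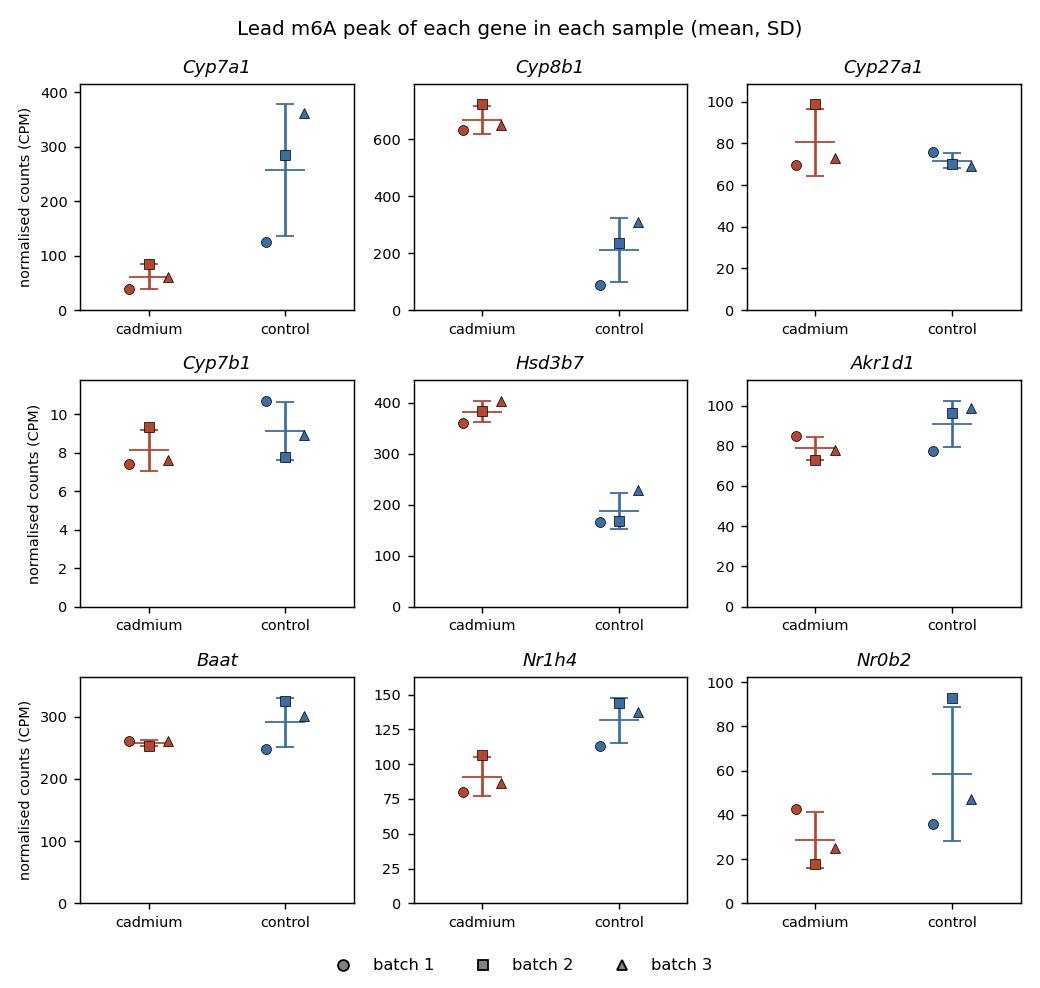
Level of the lead peak of each of the 9 genes (normalised counts, CPM) in 3 cadmium and 3 control libraries, with the mean and SD of each group; marker shape gives the batch. Cyp7a1 is low in all cadmium libraries, Cyp8b1 and Hsd3b7 are high in all of them, and the groups overlap for Cyp27a1, Cyp7b1, Akr1d1, Baat and Nr0b2.

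Cyp7a1, the gate of the classical pathway, fell the most among the members. It lies at chr4:6265612-6275632 and carries 7 peaks that together cover 2383 bases, or 23.8% of the gene. At its lead peak, chr4:6272280-6272973, the level was 38.75, 84.77 and 61.02 CPM in cadmium libraries 1, 2 and 3, against 124.3, 284.3 and 362.4 CPM in control libraries 1, 2 and 3. The groups did not overlap, and within each group library 1 was the lowest. The means were 61.5 ± 23.0 CPM in cadmium and 257 ± 121 CPM in control livers (SD, n = 3 each). This was a 4.18-fold lower level in cadmium livers (log2 change -2.06, SE 0.371, 95% interval -2.88 to -1.24, edgeR adjusted p = 0.0111). Within batches 1, 2 and 3 the log2 change was -1.67, -1.74 and -2.56. Without cadmium library 3 the lead peak of Cyp7a1 missed the threshold (log2 change -2.06, edgeR adjusted p = 0.0545).

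The other 6 peaks of Cyp7a1 fell by about as much. Across the 7 the log2 change ran from -2.20 to -2.0 with a median of -2.06, and the edgeR adjusted p from 0.00838 to 0.0236. The deepest drop was at chr4:6267087-6267499, with 8.062, 14.67 and 10.23 CPM in cadmium libraries against 26.30, 43.54 and 81.91 CPM in control libraries, which is 4.60-fold lower in cadmium livers. The 2 groups were apart at every one of the 7 peaks. The lead peak held a steady share of the gene's peak counts, 41.8%, 38.4% and 41.3% in cadmium libraries and 39.4%, 40.5% and 38.8% in control libraries. A test of whether a peak departs from the rest of its gene (edgeR's diffSpliceDGE) gave an adjusted p of 1 at each Cyp7a1 peak, and across the table it called 0.0833% of 31228 peaks. Leaving out 1 library lowered the number of Cyp7a1 peaks called to 4 without cadmium library 1, 1 without cadmium library 3, 5 without control library 2 and 3 without control library 3, and left it at 7 without cadmium library 2 or control library 1.

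Cyp8b1, which steers synthesis toward cholic acid, went the other way. It is an intronless gene of 1950 bases at chr9:121914356-121916305 on the minus strand, and its only peak, chr9:121914371-121916258, covers 96.8% of it. The level was 632.6, 724.1 and 649.8 CPM in cadmium libraries against 89.62, 235.0 and 309.0 CPM in control libraries. Every cadmium library was above every control library, and the cadmium libraries lay closer together. The means were 669 ± 48.6 CPM in cadmium and 211 ± 112 CPM in control livers (SD, n = 3 each), a 3.17-fold higher level in cadmium livers (log2 change 1.66, SE 0.343, 95% interval 0.91 to 2.42, edgeR adjusted p = 0.0197). Within batches the log2 change was 2.81, 1.62 and 1.07. Without cadmium library 3 the change in Cyp8b1 missed the threshold (log2 change 1.68, edgeR adjusted p = 0.0643).

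Both enzymes act on the same flow of sterols, and their peaks had moved in opposite directions. The peaks were therefore also set against each other within each library, where depth and scaling cancel. Counts at the Cyp8b1 peak were 16.3, 8.54 and 10.7 times those at the Cyp7a1 lead peak in cadmium libraries, and 0.721, 0.826 and 0.853 times in control libraries. The Cyp7a1 peak was the larger in every control library and the Cyp8b1 peak in every cadmium library. On the log2 scale the ratio averaged 3.51 ± 0.475 in cadmium and -0.33 ± 0.129 in control libraries (SD, n = 3 each), a difference of 3.84. The pair was chosen for its opposite changes and neither peak's groups overlap, so the separation of the ratio follows from the levels and has no test. Summing all 7 Cyp7a1 peaks gave a difference of 3.87. Per kilobase of peak, the Cyp7a1 lead peak held 88.8 ± 33.2 CPM in cadmium and 371 ± 175 CPM in control livers, and the Cyp8b1 peak 354 ± 25.8 CPM in cadmium and 112 ± 59.2 CPM in control livers (SD, n = 3 each). Control library 1 was the lowest control at both genes, and the ratio varied less among controls than either level did.

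**Figure D2:**
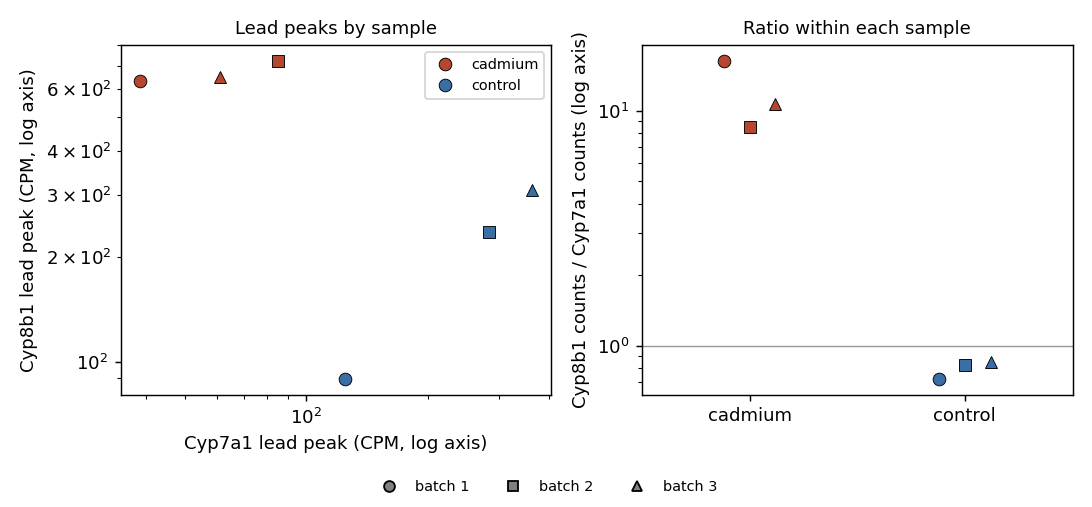
Left, the level of the Cyp8b1 peak against that of the Cyp7a1 lead peak in each library (CPM, both axes logarithmic); right, the ratio of their counts in each library (logarithmic axis), by group, with marker shape for batch. The 3 cadmium libraries have ratios of 8.54 to 16.3 and the 3 control libraries of 0.721 to 0.853.

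Hsd3b7, which encodes the dehydrogenase that acts on the steroid ring right after CYP7A1 and also serves the alternative pathway, rose at both of its peaks. The gene spans chr7:127800609-127803802 on the plus strand, and both peaks also carry the name of the predicted gene Gm49388, whose reads cannot be told apart from those of Hsd3b7 because the handling of strand is not given in the sources used. At the lead peak, chr7:127802845-127803366, the level was 361.0, 383.9 and 402.8 CPM in cadmium libraries against 166.0, 167.7 and 228.6 CPM in control libraries. The groups were well apart. The means were 383 ± 21.0 CPM in cadmium and 187 ± 35.6 CPM in control livers (SD, n = 3 each), 2.04-fold higher in cadmium livers (log2 change 1.03, SE 0.159, 95% interval 0.68 to 1.38, edgeR adjusted p = 0.00579). Within batches the log2 change was 1.12, 1.19 and 0.82. The second Hsd3b7 peak, chr7:127803515-127803741, had 60.69, 70.01 and 65.59 CPM in cadmium libraries against 31.06, 27.55 and 36.45 CPM in control libraries, and its change was nearly the same (log2 change 1.05, SE 0.156, edgeR adjusted p = 0.00481). Both Hsd3b7 peaks stayed called when any 1 of the 6 libraries was left out, which held for neither the Cyp7a1 lead peak nor the Cyp8b1 peak. Per kilobase the Hsd3b7 lead peak was the most strongly covered of the 9 lead peaks in cadmium livers, at 734 ± 40.2 CPM, against 360 ± 68.5 CPM in control livers (SD, n = 3 each).

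Akr1d1 encodes the reductase that sets the bend between the first rings of the steroid. It spans chr6:37529978-37574921 on the plus strand and carries 10 peaks, 1 of which also carries the predicted gene Gm7463. No Akr1d1 peak was called, and all 10 log2 changes were below 0, from -0.50 to -0.13, with edgeR adjusted p from 0.252 to 0.626. At the lead peak, chr6:37532427-37532728, the level was 84.85, 73.10 and 78.02 CPM in cadmium libraries against 77.48, 96.07 and 98.70 CPM in control libraries. Control library 1 lay among the cadmium libraries, so the groups overlapped. The log2 change there was -0.21 with a 95% interval of -0.54 to 0.12 (edgeR adjusted p = 0.465). Summed over the 10 peaks the log2 change of Akr1d1 was -0.25 with an interval of -0.56 to 0.05, which lies wholly below the change of Hsd3b7.

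Cyp27a1, the mitochondrial hydroxylase that opens the alternative pathway and also oxidises the side chain of classical pathway products, had 1 called peak of 3. It spans chr1:74713148-74737897 on the plus strand, with peaks centred at 1422, 14684 and 24572 bases from its start. The peak near the start, chr1:74714360-74714781, had 16.20, 12.21 and 12.99 CPM in cadmium libraries against 19.94, 21.09 and 28.00 CPM in control libraries. All 3 cadmium libraries were below all 3 control libraries, and the peak was called lower (1.67-fold, log2 change -0.74, SE 0.182, 95% interval -1.14 to -0.34, edgeR adjusted p = 0.0387). It was not called without cadmium library 2, cadmium library 3 or control library 3 (edgeR adjusted p at most 0.172). The middle Cyp27a1 peak, with 16.03, 11.27 and 12.56 CPM in cadmium libraries and 18.84, 14.30 and 20.21 CPM in control libraries, was not called (log2 change -0.42, edgeR adjusted p = 0.224). The lead peak at the far end, chr1:74737602-74737839, had 69.79, 98.79 and 72.80 CPM in cadmium libraries against 75.96, 70.33 and 69.00 CPM in control libraries. Only cadmium library 2 stood above the rest, and the log2 change was 0.17 (95% interval -0.20 to 0.53, edgeR adjusted p = 0.609).

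The share of Cyp27a1 peak counts held by the first peak was 15.9%, 9.99% and 13.2% in cadmium libraries against 17.4%, 20.0% and 23.9% in control libraries. These shares did not overlap between the groups. In the test of departure from the rest of the gene the first peak did not pass (diffSpliceDGE adjusted p = 0.673), so a change in where the Cyp27a1 counts fall along the gene was not shown. Summed over its 3 peaks Cyp27a1 had a log2 change of -0.09 (edgeR adjusted p = 0.696).

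Cyp7b1, the hydroxylase that follows CYP27A1 in the alternative pathway, had the lowest lead peak of the 9 genes. Its gene spans chr3:18071944-18243890 and carries 2 peaks. The lead peak, chr3:18072379-18072661, had 7.424, 9.351 and 7.595 CPM in cadmium libraries against 10.69, 7.749 and 8.925 CPM in control libraries, and the groups overlapped (log2 change -0.17, 95% interval -0.56 to 0.22, edgeR adjusted p = 0.636). The second peak, with 6.833, 5.354 and 3.547 CPM in cadmium libraries and 9.451, 6.354 and 6.932 CPM in control libraries, also overlapped (log2 change -0.53, 95% interval -1.08 to 0.01, edgeR adjusted p = 0.239). A change of the size seen at the Cyp7a1 lead peak lies outside both Cyp7b1 intervals.

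Baat, which encodes the enzyme that conjugates bile acids to amino acids before they leave the cell, had no called peak. It lies at chr4:49489416-49507915 with 5 peaks, with log2 changes of -0.41 to -0.10 and edgeR adjusted p of 0.252 to 0.755. The lead peak, chr4:49489455-49490440, had 260.8, 252.0 and 260.0 CPM in cadmium libraries against 247.3, 324.3 and 301.4 CPM in control libraries. Control library 1 was below all 3 cadmium libraries and the other control libraries above them. The log2 change at the Baat lead peak was -0.18 (95% interval -0.49 to 0.14, edgeR adjusted p = 0.519), and over the summed counts it was -0.21 (95% interval -0.47 to 0.06).

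**Figure D3:**
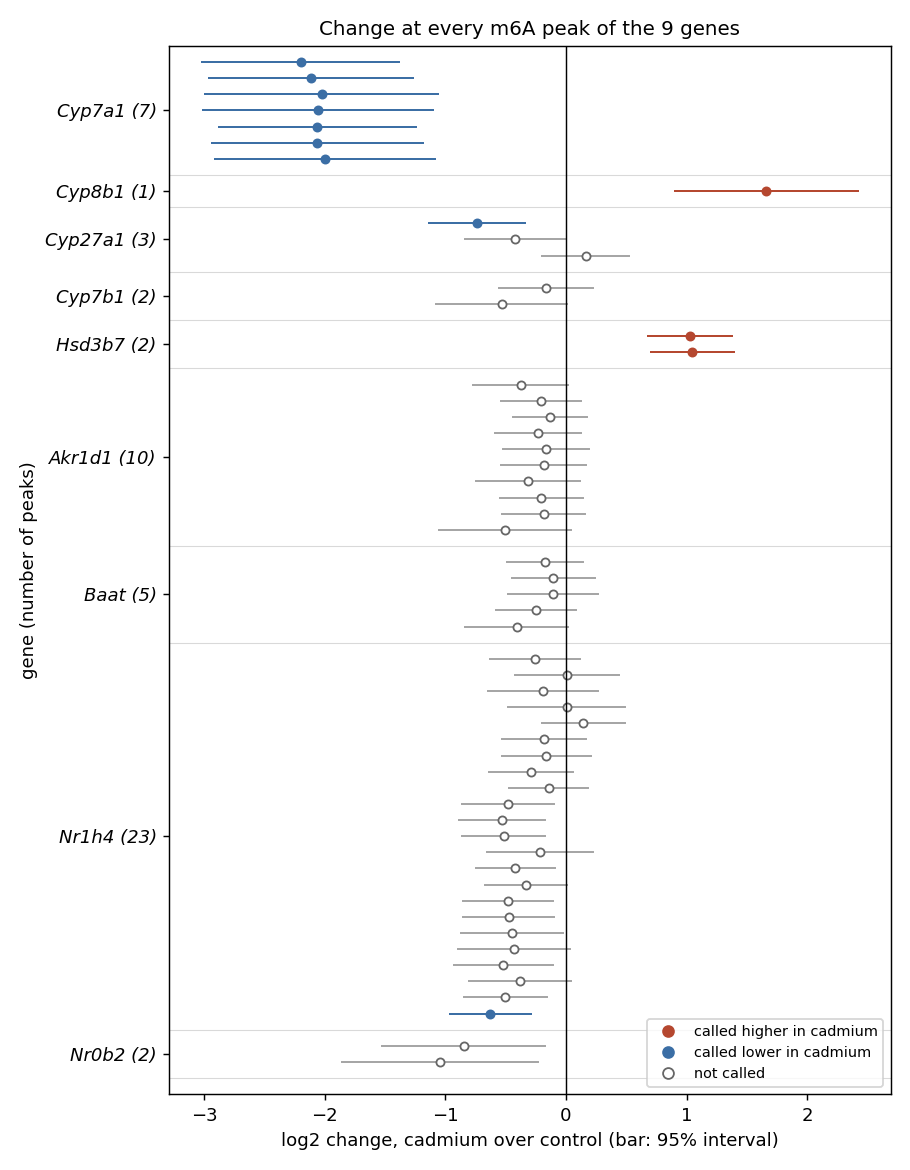
Log2 change (cadmium over control) with its 95% interval at each of the 55 peaks, grouped by gene; filled points were called by edgeR, red higher and blue lower in cadmium, and open points were not called. The 7 Cyp7a1 peaks lie between -2.20 and -2.0, Cyp8b1 and both Hsd3b7 peaks lie above 1, and the other genes lie between -1.04 and 0.17.

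Nr1h4, the gene of the receptor FXR, had lower values in cadmium livers at most of its peaks, of which 1 was called. It spans chr10:89454234-89533645 on the minus strand and carries 23 peaks, with mean levels from 4.58 to 111 CPM. The log2 change was below 0 at 20 of the 23, from -0.63 to 0.14 with a median of -0.38. The groups did not overlap at 10 of the 23, against 26.8% of all tested peaks. These 23 peaks share the RNA of 1 gene and the same libraries, so they are not independent. The called peak was chr10:89454472-89454941, near the end of the gene, with 44.59, 45.98 and 36.43 CPM in cadmium libraries against 60.52, 70.79 and 64.77 CPM in control libraries. The groups were apart there, and the level was 1.54-fold lower in cadmium livers (log2 change -0.63, SE 0.151, 95% interval -0.96 to -0.29, edgeR adjusted p = 0.0363). That call was lost in 5 of the 6 fits that left out 1 library, with an edgeR adjusted p of up to 0.196.

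The lead peak of Nr1h4, chr10:89498058-89498465, had 79.70, 106.6 and 86.57 CPM in cadmium libraries against 113.0, 143.9 and 137.6 CPM in control libraries. Its groups did not overlap either, yet it was not called (log2 change -0.53, 95% interval -0.89 to -0.17, edgeR adjusted p = 0.081). With the batch number as a block it was called (log2 change -0.53, edgeR adjusted p = 0.0334). Summed over its 23 peaks Nr1h4 fell by 0.45 on the log2 scale (SE 0.122, 95% interval -0.72 to -0.18, edgeR adjusted p = 0.0468), and that call was lost with upper-quartile scaling (adjusted p = 0.0681) and in 5 of the 6 fits without 1 library, where the adjusted p reached 0.212.

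The values were also set out along Nr1h4. Over the 23 peaks Spearman's rho between the log2 change and the distance from the gene start was -0.735, a description over peaks that share libraries and RNA. RefSeq places the start behind the Nr1h4 promoter shown above at an internal position, 26987 bases from the outer gene start, and the peaks were split there after their values had been seen, so the split has no test. The 9 peaks before the internal start had log2 changes of -0.29 to 0.14 with a median of -0.16, and summed to 62.51, 77.07 and 62.26 CPM in cadmium libraries against 68.37, 76.81 and 75.19 CPM in control libraries. Those sums overlap between the groups. The 14 peaks after it had log2 changes of -0.63 to -0.21 with a median of -0.48, and summed to 312.3, 387.4 and 319.6 CPM in cadmium libraries against 453.4, 481.6 and 489.5 CPM in control libraries. Every cadmium sum was below every control sum there. No Nr1h4 peak was called as departing from the rest of the gene (diffSpliceDGE adjusted p = 1 at each). That test takes 1 peak at a time, so it cannot decide whether the stretches differ. Its log2 differences from the rest of the gene ran from 0.099 to 0.398 at the 9 peaks before the internal start. At the 14 peaks after it they ran from -0.136 to 0.149. The smallest unadjusted diffSpliceDGE p was 0.00894, at chr10:89525358-89526121, before the internal start. The peaks before the internal start were also the lower ones, with mean levels of 4.58 to 12.5 CPM. Across the 10 Akr1d1 peaks the same rho was -0.115.

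**Figure D4:**
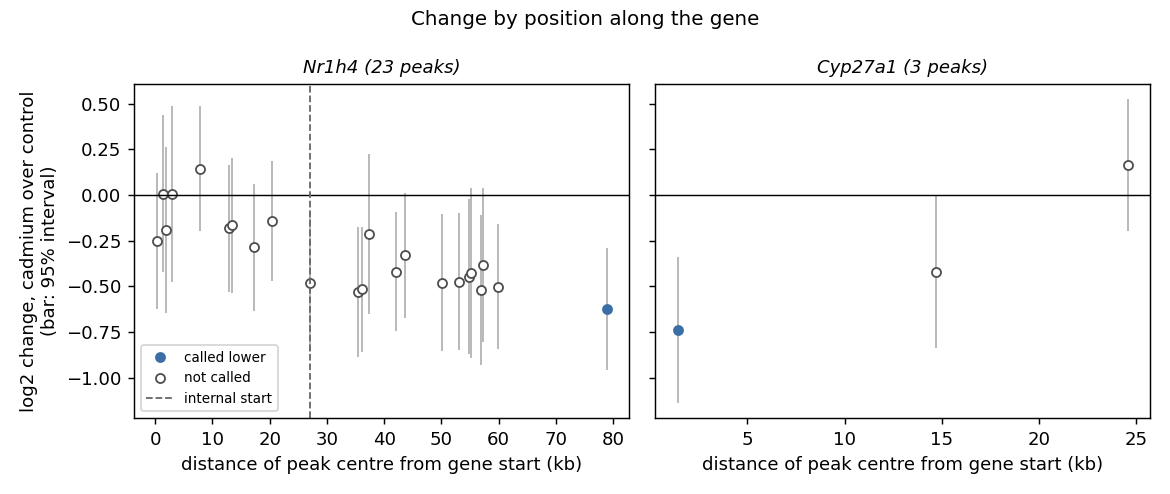
Log2 change (cadmium over control) with its 95% interval at each peak of Nr1h4 (23 peaks) and Cyp27a1 (3 peaks). Peaks are placed by the distance of their centre from the gene start in kilobases. Filled points were called lower, and the dashed line marks the internal start of Nr1h4. The 9 Nr1h4 peaks before the line lie between -0.29 and 0.14 and the 14 after it between -0.63 and -0.21. The Cyp27a1 peaks lie between -0.74 and 0.17.

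Nr0b2, the gene of SHP and a direct FXR target, had wide spread and no called peak. It lies at chr4:133553376-133556686 on the plus strand with 2 peaks. The lead peak, chr4:133555925-133556533, had 42.53, 17.87 and 25.01 CPM in cadmium libraries against 35.83, 93.00 and 46.94 CPM in control libraries. Cadmium library 1 was above control library 1, so the groups overlapped, and the log2 change within batches was 0.24, -2.35 and -0.90. The overall log2 change at the Nr0b2 lead peak was -1.04 (SE 0.368, 95% interval -1.86 to -0.23, edgeR adjusted p = 0.126). The other Nr0b2 peak, chr4:133553411-133553592, had 13.50, 4.992 and 7.617 CPM in cadmium libraries against 12.47, 18.39 and 16.02 CPM in control libraries. Cadmium library 1 again lay within the control range (log2 change -0.85, edgeR adjusted p = 0.133). That peak was called in 1 of the 6 fits without 1 library, the one without cadmium library 1 (edgeR adjusted p = 0.0227), and its adjusted p in the others reached 0.37. At the Nr0b2 lead peak the log2 change shrank to -0.54 without control library 2.

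Other genes of bile acid synthesis were read at their lead peaks, where 6.8% of 13050 genes were called, 2.4% lower and 4.4% higher, and the median log2 change of all genes was 0.02. Of 16 other synthesis enzymes 14 had a tested peak (not Ch25h and Cyp46a1), 1 was called lower and none higher, and the median log2 change was -0.12. The called one was Cyp39a1, the oxysterol hydroxylase that feeds sterols hydroxylated in the brain into bile acids, with 4.918, 4.648 and 5.049 CPM in cadmium libraries against 10.75, 9.402 and 9.333 CPM in control libraries. The groups were far apart beside their spread (log2 change -1.01, SE 0.154, edgeR adjusted p = 0.00537), and the call held without any 1 library. Cyp2c70, which makes muricholic acids in mice, had 60.76, 39.25 and 44.74 CPM in cadmium libraries against 63.67, 38.46 and 54.96 CPM in control libraries, and was not called (log2 change -0.12, edgeR adjusted p = 0.799).

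Regulators of the pathway showed no called lead peak among the 11 of 13 with one (Fgfr4 and Fgf15 had none), with a median log2 change of -0.15. At an unadjusted p below 0.05 in edgeR's test there were 2, Nr1i2 and Hnf4a, a share no higher than the 3030 of 13050 over all genes. Nr1i2, the xenobiotic receptor PXR, had 20.76, 19.97 and 18.89 CPM in cadmium libraries against 28.15, 32.01 and 25.42 CPM in control libraries (log2 change -0.52, edgeR adjusted p = 0.0654). Hnf4a, a nuclear receptor that activates Cyp7a1 and Cyp8b1, had 422.8, 480.8 and 407.8 CPM in cadmium libraries against 584.9, 581.0 and 511.0 CPM in control libraries (log2 change -0.35, edgeR adjusted p = 0.154). Both were lower in each cadmium library than in any control library without passing the threshold. Nr5a2, the LRH-1 receptor that SHP represses, had a log2 change of -0.14 (edgeR adjusted p = 0.698).

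Among 9 other liver genes known as FXR targets, all with a tested peak, none was called lower and 1 higher. Over 13050 genes 2.4% were called lower and 4.4% higher. The median log2 change of the 9 was 0.08. The list was not split by the direction in which FXR moves each gene, so this median does not measure FXR activity. The called gene was Pltp, a phospholipid transfer protein, at a peak it shares with Ctsa, with 140.2, 111.6 and 141.1 CPM in cadmium libraries against 81.80, 74.18 and 77.00 CPM in control libraries (log2 change 0.75, edgeR adjusted p = 0.0158). The Pltp call was lost without cadmium library 3 (edgeR adjusted p = 0.095) and without control library 3 (0.0614). Slc51a, a subunit of the basolateral bile acid transporter, at a peak shared with Pcyt1a, had 6.289, 5.118 and 4.875 CPM in cadmium libraries against 8.005, 8.605 and 6.184 CPM in control libraries, which overlap, and was not called (log2 change -0.49, 95% interval -0.90 to -0.08, edgeR adjusted p = 0.154). Abcb11, the bile salt export pump, had 131.8, 121.9 and 114.8 CPM in cadmium libraries against 114.7, 57.47 and 93.69 CPM in control libraries. Its cadmium values were all higher, by a margin at the closest pair that is within the spread, and it was not called (log2 change 0.47, 95% interval -0.01 to 0.96, edgeR adjusted p = 0.243).

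Genes that supply the P450 enzymes with electrons and haem included a pair with strong drops. Of 7 measured, 2 were called lower and none higher, against 2.4% and 4.4% of 13050 genes. Their median log2 change was 0.003. Por, the reductase that passes electrons to microsomal P450 enzymes such as CYP7A1, CYP8B1 and CYP7B1, had 72.06, 112.4 and 100.1 CPM in cadmium libraries against 218.8, 214.8 and 220.0 CPM in control libraries (log2 change -1.20, SE 0.172, edgeR adjusted p = 0.00407). Alas1, the first enzyme of haem synthesis in liver, had 11.30, 34.89 and 17.58 CPM in cadmium libraries against 178.1, 192.1 and 166.2 CPM in control libraries (log2 change -3.07, SE 0.342, edgeR adjusted p = 0.0013). The groups were far apart for Por and for Alas1, and both calls held without any 1 library. Fdx1 and Fdxr, which serve the mitochondrial CYP27A1, had log2 changes of 0.11 and 0.21 and were not called.

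Cyp7a1 transcription is known to follow the hour of the day through clock-controlled factors, and a list of 9 such regulators held 4 calls. All 9 had a tested peak, and 2 were called lower and 2 higher, against 2.4% and 4.4% of the 13050 genes. An unadjusted edgeR p below 0.05 was found at 7, against 3030 of the 13050 genes. Their median log2 change was -0.40. Nr1d1, the repressor REV-ERB alpha, had 77.78, 62.22 and 59.74 CPM in cadmium libraries against 22.75, 13.92 and 29.97 CPM in control libraries (log2 change 1.58, SE 0.250, edgeR adjusted p = 0.00636). The groups were apart, and the Nr1d1 call held without any 1 library. Nr1d2, the related gene of the list, went the other way without a call (log2 change -0.40, edgeR adjusted p = 0.106). It had 79.06, 86.31 and 82.72 CPM in cadmium libraries against 107.3, 117.8 and 103 CPM in control libraries. The other calls were weaker. Tef had a log2 change of -0.95 (edgeR adjusted p = 0.0152) and lost its call without cadmium library 3 (0.0717) or control library 3 (0.0527). Hlf had a log2 change of -0.82 (edgeR adjusted p = 0.0487) and was called in 2 of the 6 fits without 1 library, with adjusted p up to 0.20 (without cadmium library 3). Nfil3 had a log2 change of 0.66 (edgeR adjusted p = 0.0325) and was called in 1 of those 6 fits, with adjusted p up to 0.142 (without cadmium library 3). Dbp, which in rats activates Cyp7a1 through D-boxes, was not called (log2 change -0.82, edgeR adjusted p = 0.103). Bhlhe40 was not called either (log2 change -0.73, edgeR adjusted p = 0.0531). The sources used here give no hour of sampling, and the part of the hour or of these regulators in the Cyp7a1 and Cyp8b1 changes was not tested.

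Genes whose lead peaks ran most like those of the 2 oppositely moving enzymes were ranked by the distance between centred log2 levels over the 6 libraries, among 8388 genes. Nearest to Cyp7a1 were Sik1 (root mean square distance 0.214 on the log2 scale), Cyp4a14 (0.30), Mfsd2a (0.348), Per1 (0.352) and Per2 (0.408). Sik1 had 9.433, 20.69 and 15.15 CPM in cadmium libraries against 28.19, 90.33 and 69.61 CPM in control libraries. As with Cyp7a1, library 1 was the lowest in both groups. Per1 and Per2 encode period proteins of the clock, and Per2 had 16.36, 22.16 and 15.10 CPM in cadmium libraries against 54.92, 97.36 and 73.96 CPM in control libraries. Nearest to Cyp8b1 were Zc3h12d (0.307), Lyve1 (0.365), Prss23 at a peak shared with Prss23os (0.368), Cd74 (0.455) and Nav2 (0.474). Zc3h12d had 12.79, 13.40 and 20.33 CPM in cadmium libraries against 1.935, 3.645 and 5.437 CPM in control libraries. These genes were picked for their likeness, so their values are a description.

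**Figure D5:**
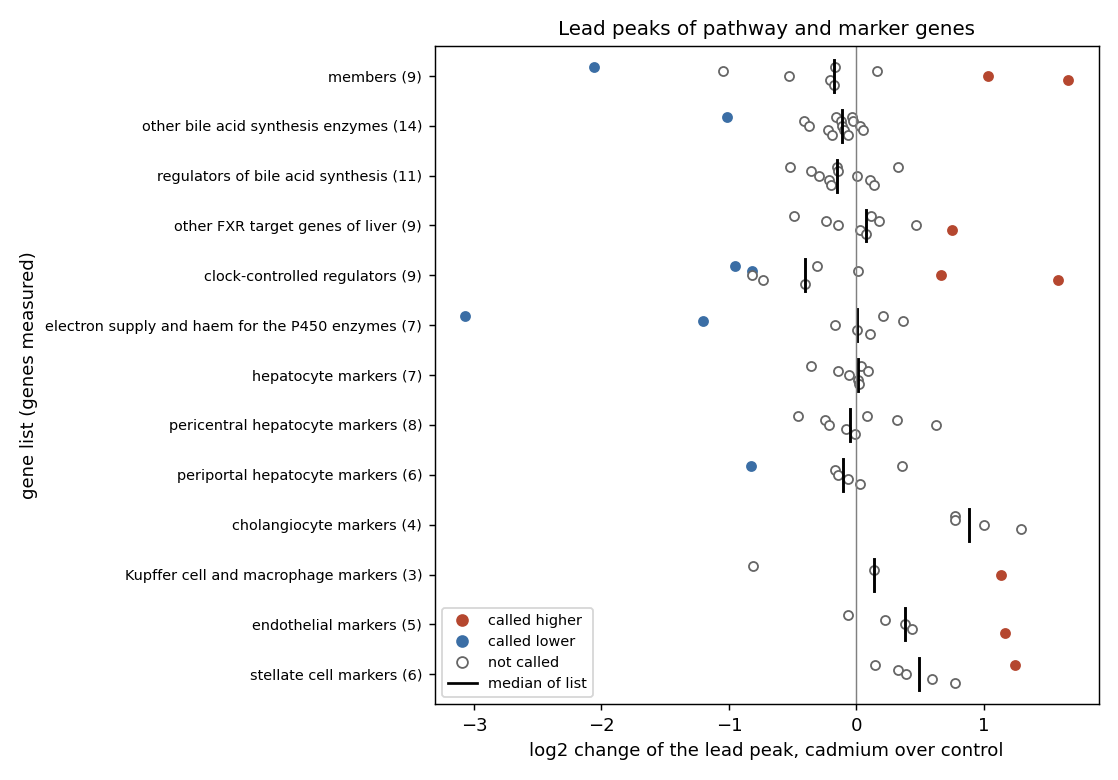
Log2 change (cadmium over control) of the lead peak of each gene in the member, pathway and marker lists; filled points were called by edgeR, red higher and blue lower in cadmium, open points were not called, and the vertical bar is the list's median. The clock-controlled list has the lowest median (-0.40) and spans -0.95 to 1.58, and the hepatocyte list lies between -0.36 and 0.09.

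Markers of liver cells were set beside these results, again at lead peaks, where 2.4% of 13050 genes were called lower and 4.4% higher. None of 7 measured hepatocyte markers was called (Tf had no tested peak), and their median log2 change was 0.02. Their lead peaks summed to 16900 to 19400 CPM in cadmium and 18700 to 20700 CPM in control libraries. The largest part of these sums was Apob, with 9046 to 10590 CPM in cadmium and 9763 to 12660 CPM in control libraries. None of 8 pericentral markers, which mark the zone where Cyp7a1 is mainly transcribed, was called, and their sums were 3370 to 4150 CPM in cadmium and 4150 to 4180 CPM in control libraries. Of 6 periportal markers 1 was called, Pck1, lower in cadmium (log2 change -0.83, edgeR adjusted p = 0.0295). The list median was -0.105, and the log2 changes of the uncalled markers ran from -0.17 (Gls2) to 0.36 (Hal). The sums were 1370 to 1670 CPM in cadmium and 2020 to 2410 CPM in control libraries. Much of them was Pck1, with 594.3, 999.1 and 807.2 CPM in cadmium libraries against 1538, 1504 and 1223 CPM in control libraries. Of the cholangiocyte markers 4 of 7 had a tested peak (not Krt19, Krt7 or Cftr) and none was called, with a median log2 change of 0.89 and sums of 19.2 to 68.6 CPM in cadmium and 23.1 to 30.3 CPM in control libraries. Of the Kupffer cell and macrophage markers 3 of 6 had one (not Adgre1, Cd68 or Timd4), and they did not move alike. Cd5l was called higher (log2 change 1.14, edgeR adjusted p = 0.0158). Vsig4 was lower without a call (log2 change -0.81, edgeR adjusted p = 0.155), and Clec4f had a log2 change of 0.14, the list median. The sums were 97.6 to 131 CPM in cadmium and 76.4 to 101 CPM in control libraries. Of the endothelial markers 5 of 6 had one (not Clec4g) and Lyve1 was called higher (log2 change 1.17, edgeR adjusted p = 0.039). The list median was 0.38, the lowest log2 change was -0.07 (Kdr), and the sums were 82.3 to 120 CPM in cadmium and 74.3 to 116 CPM in control libraries. Of 6 stellate cell markers Rgs5 was called higher (log2 change 1.24, edgeR adjusted p = 0.0084), with a list median of 0.49 and sums of 117 to 141 CPM in cadmium and 80.1 to 104 CPM in control libraries. Of these marker calls Rgs5 was kept in all 6 fits without 1 library, Cd5l in 4 of them (edgeR adjusted p up to 0.0696), and Pck1 and Lyve1 in 1 each (up to 0.108 and 0.088). The part of cell makeup in the changes of the bile acid genes was not tested.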

How the data were processed

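The deposited table holds whole-number counts per m6A peak with gene symbols and mm10 coordinates. No normalisation by the authors shows in the values. The count columns carry numbers that an immunoprecipitated and an input library share. They were taken as immunoprecipitated counts since each row is an m6A peak, which is an assumption. Input counts were not used here. Per the submitters' processing notes, STAR 2.7.1a, MACS2 2.1.1 and DESeq2 (written there as 4.1.0) were among the tools. The sources used here give neither their settings, the handling of strand and duplicates, the base from which starts count, nor whether peaks were called per sample or on pooled samples. The authors' deposited log2 fold changes and p-values served for comparison only.

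The count test was edgeR 4.0.16 (R 4.3.3) with TMM factors, filterByExpr (minimum count 10, total 15), the quasi-likelihood F test and Benjamini-Hochberg adjustment over 37088 peaks. The biological coefficient of variation was 19.4%. SE and 95% intervals derive from the F statistic. Counts were also summed per gene, and diffSpliceDGE compared each peak with the rest of its gene. Peaks with several symbols counted for each. Scripts were tested on simulated data, where the edgeR test called 1 of 50 peaks changed 1.5-fold and 26 of 50 changed 2-fold. A peak that was not called may thus still have changed by such amounts. No pair of libraries within a group matched within sampling noise (chi-square per degree of freedom 31.9 to 161).

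Libraries of equal number share a batch in the labels. The tests reported are unpaired, and the fit with this number as a block was an alternative. Correlations of deviations from group means were 0.16, 0.232 and 0.196 for pairs of a batch, against -0.19 to 0.0175 for other pairs. Other alternatives were DESeq2 1.42.0, other scalings and filters, and leaving out each library. Named genes are the members, called genes of the pathway and marker lists, the 5 genes nearest to Cyp7a1 and to Cyp8b1, and a few list genes named for their known role or low unadjusted p after values had been seen. The members and lists were chosen with earlier results of these data known. Gene spans and promoters are RefSeq's, assembly GRCm38.p6. Sequences within peaks were not analysed here. A gene of the lists is not reported here and is left out of the counts.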

Additional observations from a re-analysis of the deposited data

How the results depend on the processing

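Directions at the lead peaks of the 9 genes held under every alternative run, except that Cyp27a1 reversed without cadmium replicate 2 (log2 change -0.0089, edgeR adjusted p = 0.987). DESeq2 called 3683 peaks of the table and 16 of the 55 member peaks, against 2325 and 12 with edgeR, and the fit with the replicate block called 3144 and 13. The lead peak of Nr1h4 passed the threshold with the replicate block (log2 change -0.53, adjusted p = 0.0334) and with DESeq2 (log2 change -0.54, adjusted p = 0.0323), and the block ended no call at a member peak. The 4 that DESeq2 adds are 3 of Nr1h4 and 1 of Nr0b2. The other scalings and filters gave 12 member peaks each. Hlf, called at the threshold's edge, missed it with upper-quartile scaling, no filter and a stricter filter (adjusted p = 0.056, 0.0503 and 0.0501). The alternatives for called genes of the other lists were chosen after seeing the data. The cause of these differences was not tested.

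Leaving out 1 library gave 543 to 1976 calls over all peaks (543 without cadmium replicate 3 and 1078 without control replicate 3) and 3 to 12 over the member peaks (3 and 6 without those same libraries). The log2 change of Cyp7a1 then ran from -2.39 to -1.73 (adjusted p 0.00208 to 0.0545) and that of Cyp8b1 from 1.3 to 2.04 (adjusted p 0.00371 to 0.0643). The highest adjusted p of both came without cadmium replicate 3. Ranges were -0.66 to -0.44 for Nr1h4, -1.44 to -0.54 for Nr0b2, -0.0089 to 0.26 for Cyp27a1 and 3.58 to 4.05 for the log2 ratio of Cyp8b1 to Cyp7a1. The number of genes called on summed counts ran from 1 to 4, with 1 without cadmium replicate 3. Fewer libraries were tested in each of these fits.

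The authors' deposited table calls 3 of the 55 member peaks up and 7 down. Those calls match an absolute log2 change above 1 with an unadjusted p below 0.05, and 16 member peaks there have an adjusted p below 0.05.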
